A study of Mus musculus with 30 samples.

Results

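Small RNA circulating in the serum of adult male mice was compared between males stressed in early life and controls, and the comparison uses every library of the serum small RNA table, 8 of the 30 samples of the series. The study asked whether factors in the blood carry effects of early trauma to the germline, and the serum table addresses whether small RNA differs between the groups. All males were C57Bl/6J and gave serum at 3 months of age according to the series description. In the MSUS group (4 libraries, numbered 6, 7, 8 and 10), litters had gone through unpredictable separation from the mother together with unpredictable stress of the mother on the first 14 days of life, and in the CTRL group (4 libraries, numbered 1, 2, 3 and 5) litters were left undisturbed. The labels give the 8 libraries as separate samples, so the p-values measure the spread between these samples; how many animals stand behind a library is not given.

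Serum holds small RNA that is protected from nucleases by proteins, lipoproteins and vesicles. Much of it is made of fragments that begin at the 5′ end of mature tRNAs and stop in the anticodon loop, called tRNA-derived 5′ fragments, and these reach high levels in blood. miRNAs are shorter, repress mRNAs that pair with their seed (bases 2 to 8), and are released into blood by blood cells, liver and other tissues. tRNA genes carry an internal promoter whose first element, the A box, lies near the 5′ end of the tRNA, so that such a fragment keeps it.

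The table lists 21634 unique sequences of 15 to 49 nt with 115060705 counts. Library totals in the table were 16368329, 15391664, 13308756 and 12445867 counts in CTRL 1, 2, 3 and 5, and 16733257, 15446930, 12744641 and 12621261 counts in MSUS 6, 7, 8 and 10; all lists of values below keep this order. CTRL 5 had the lowest total and MSUS 6 the highest, and the totals of the groups overlapped. Of the sequences, 11347 had counts in all 8 libraries and 353 held an undetermined base. Counts were concentrated in few sequences: 5 sequences held 50% of all counts and 92 held 90%. At this depth the 95% Wilson interval of a share of a library's counts was at most 0.0278 percentage points to either side, which covers counting error only, since reads without molecular identifiers are not independent molecules. The spread between libraries was far wider than this in the shares given below. CTRL 1, 2 and 3 stood apart from CTRL 5 and all 4 MSUS libraries in several of the measures below, and values without CTRL 5 are given for several of them; the labels give no library batch, so a batch that held CTRL 1, 2 and 3 and the group cannot be told apart.

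Lengths fell into a peak at 22 and 23 nt and a larger one at 30 to 33 nt. Of all counts, 18.3% lay at 20 to 24 nt, 34.6% at 28 to 31 nt and 43.6% at 32 to 34 nt, while 15 to 19 nt held 1.88%, 25 to 27 nt 0.411% and 35 to 49 nt 1.15%. The share at 20 to 24 nt, where miRNAs lie, was 18.6%, 16.8%, 24.6% and 23.0% in CTRL and 13.2%, 16.5%, 13.7% and 22.2% in MSUS. MSUS 6, 7 and 8 lay below every CTRL library and MSUS 10 lay among them, so the groups overlapped; the means were 20.7% ± 3.65 in CTRL and 16.4% ± 4.13 in MSUS (SD, n = 4; two-sided exact permutation p = 0.171, where 0.0286 is the smallest p that 4 against 4 libraries allow). The share at 28 to 31 nt was 38.7%, 27.9%, 27.3% and 37.0% in CTRL and 25.9%, 46.96%, 32.4% and 41.8% in MSUS. At 32 to 34 nt it was 39.1%, 52.4%, 44.3% and 35.8% in CTRL and 57.7%, 33.4%, 50.8% and 32.5% in MSUS. These 2 classes traded places from library to library within both groups, with MSUS 6 and 8 and CTRL 2 high at 32 to 34 nt and MSUS 7 and 10 and CTRL 1 and 5 high at 28 to 31 nt. None of the 6 length classes differed by the exact permutation test (p = 0.114 to 0.971, adjusted by Benjamini-Hochberg over the 6 classes 0.343 to 0.971). The mean length was 29.5 ± 0.475 nt in CTRL and 29.97 ± 0.626 nt in MSUS (SD, n = 4; exact permutation p = 0.257).

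**Figure D1:**
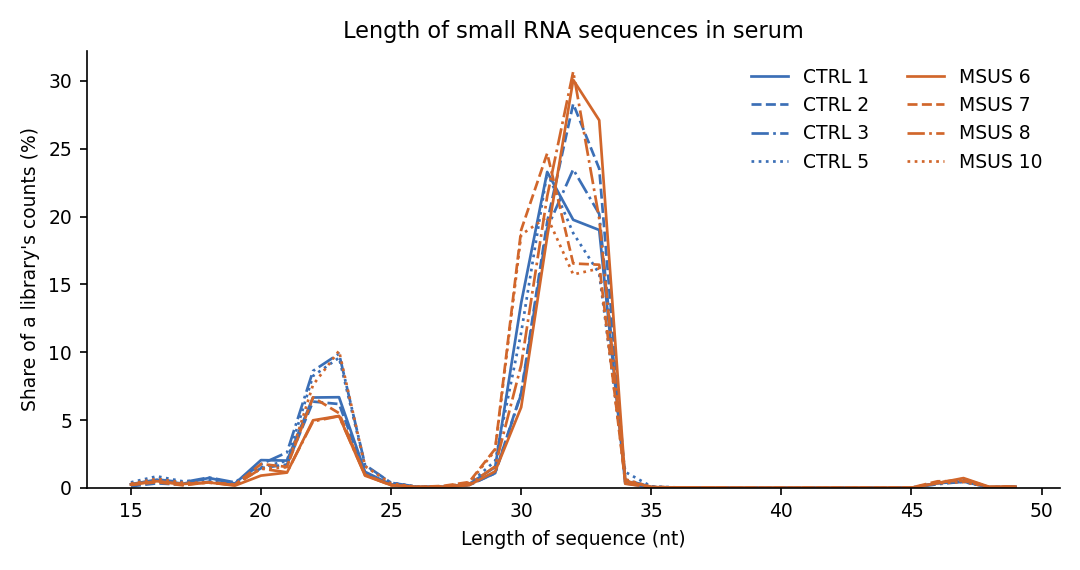
Share of each serum library's counts (%) at each length from 15 to 49 nt, with CTRL libraries in blue and MSUS libraries in orange and 1 line for each library. Both groups show a peak at 22 and 23 nt and a larger one at 30 to 33 nt, and the libraries differ in how the larger peak is divided between 30, 31 and 32 nt.

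Counted once each, the unique sequences were spread differently from the counts, with 25.6% of them at 20 to 24 nt, 15.3% at 28 to 31 nt, 13.3% at 32 to 34 nt and 28.5% at 35 to 49 nt. Among the long ones, 1506 had 46 nt and 2392 had 47 nt. Of the 6161 sequences of 35 to 49 nt, 61.6% began with a whole sequence of 28 to 34 nt that had at least 10000 counts, and these held 87.7% of the counts at 35 to 49 nt. This percentage was 90.4, 89.2, 88.1 and 84.5 in CTRL and 87.5, 85.2, 91.3 and 84.7 in MSUS, with overlapping groups (exact permutation p = 0.657). The same 8 bases were found in the added part for 56.7% of these counts, and the origin of the added part was not tested.

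Base composition followed length. G was the first base of 74.9%, 77.5%, 68.9% and 69.5% of the counts in CTRL and of 81.2%, 76.4%, 79.9% and 71.8% in MSUS, and T was the first base of 19.97%, 18.4%, 26.1% and 23.9% in CTRL and of 14.8%, 17.6%, 15.4% and 23.3% in MSUS. MSUS 6 and 8 were highest for G and lowest for T, MSUS 10 lay among the CTRL libraries, and the groups overlapped for both bases (exact permutation p = 0.171 for G and 0.143 for T). Counts at 20 to 24 nt began with T in 86.7% to 90.8% of cases over the 8 libraries, those at 28 to 31 nt with G in 88.6% to 92.3%, and those at 32 to 34 nt with G in 96.0% to 97.1%. Of 24 first-base shares within length classes, 2 did not overlap between the groups. C began 6.29%, 5.91%, 6.14% and 5.80% of the counts at 20 to 24 nt in CTRL and 5.13%, 5.58%, 5.06% and 4.62% in MSUS. T began 3.51%, 3.27%, 3.70% and 3.44% of the counts at 32 to 34 nt in CTRL and 2.65%, 3.20%, 3.07% and 3.16% in MSUS. Every CTRL library lay above every MSUS library in both of these shares, with differences of the means of -0.937 and -0.460 percentage points (exact permutation p = 0.0286 for each, adjusted by Benjamini-Hochberg over the 24 shares 0.196). With 4 libraries a group the adjusted values could not pass 0.05 unless most of the 24 shares separated the groups. Mean GC content over all counts was 51.6%, 51.3%, 52.2% and 52.5% in CTRL and 51.2%, 51.5%, 51.3% and 52.1% in MSUS, with overlapping groups (exact permutation p = 0.229). Within length classes it ran from 49.9% to 50.8% at 32 to 34 nt and from 56.8% to 59.4% at 15 to 19 nt, and no class differed between the groups (exact permutation p = 0.171 to 0.857).

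Sequences were searched for the A box, starting at base 7 to 9, where it lies in a mature tRNA read from its 5′ end. It was found in 7177 sequences, which are 33.2% of the unique sequences and 75.9% of the counts, against 1 of the 1037 miRNA-matched sequences and 0.219% of 32851 RefSeq promoters (GRCm38.p6) read from their first base. By length it held 0.0478% of the counts at 20 to 24 nt, 93.2% at 28 to 31 nt, 97.3% at 32 to 34 nt and 85.9% at 35 to 49 nt. The share of A-box sequences in a library was 75.3%, 78.4%, 69.5% and 69.0% in CTRL and 81.9%, 77.1%, 81.3% and 71.9% in MSUS. MSUS 6 and 8 were highest and CTRL 3 and 5 lowest, with MSUS 7 and 10 among the CTRL libraries (means 73.0% ± 4.54 and 78.1% ± 4.62, SD, n = 4; exact permutation p = 0.171). The A box was searched for after the most abundant sequences had been seen. A match is a description, and no tRNA was assigned, since no tRNA sequences were used here.

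Sequences that share their first 15 bases were joined into 6468 families, numbered by abundance, so that a different 3′ end does not split an RNA. Families 1 and 2 alone held 32.1% and 20.6% of all counts, and families 6, 7 and 11 held 1.61%, 1.51% and 0.706%. The most abundant sequence of each is shown because these 5 families carry most of the A-box counts; capitals mark the A box, and the length is that of the sequence.
family 1, 31 nt: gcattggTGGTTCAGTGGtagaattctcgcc
family 2, 33 nt: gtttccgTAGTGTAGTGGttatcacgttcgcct
family 6, 32 nt: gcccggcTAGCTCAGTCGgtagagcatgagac
family 7, 32 nt: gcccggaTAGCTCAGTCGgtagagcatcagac
family 11, 31 nt: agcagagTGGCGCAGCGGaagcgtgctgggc
Family 1 took 35.6%, 33.4%, 29.6% and 27.9% of the counts in CTRL and 30.02%, 33.2%, 34.4% and 32.01% in MSUS. Family 2 took 20%, 23.8%, 21.4% and 16.98% in CTRL and 27.1%, 17.2%, 19.7% and 16.6% in MSUS. For both families the groups overlapped widely, with log2 fold changes of MSUS over CTRL of 0.10 ± 0.18 and 0.06 ± 0.25 (SE; edgeR quasi-likelihood test, adjusted p = 0.786 and 0.919); for family 2 the sign changed with library totals and no TMM, to -0.03. Family 3, of 23 nt, had neither an A box nor a miRNA match and took 10.1%, 9.44%, 15.9% and 15.1% in CTRL and 8.43%, 8.00%, 7.67% and 15.3% in MSUS. MSUS 6, 7 and 8 lay below all CTRL libraries, as in the share of 20 to 24 nt, and MSUS 10 lay among the highest.

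Families 4 and 5 differed from family 1 at base 6. Family 4, with 9.33% of all counts, carries G6T and family 5, with 4.00%, lacks a G at base 6 or 7, with positions counted from 1 at the 5′ end of family 1. Where the missing base lies in a run of equal bases, as at bases 6 and 7 of family 1 and 9 and 10 of family 11, losing any of them gives the same sequence, and the first is named here. They are shown beside their parents, with the changed base, or the bases on both sides of the missing one, in capitals.
family 1, parent of family 4: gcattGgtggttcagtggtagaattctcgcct
family 4, variant: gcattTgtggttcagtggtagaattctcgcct
family 1, parent of family 5: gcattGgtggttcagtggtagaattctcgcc
family 5, deletion: gcatTGtggttcagtggtagaattctcgcc
Such 5′ variants were then searched for in the whole table, as sequences with 1 substituted or 1 missing base against a sequence at least 2 times as abundant; this measure was chosen after the data had been seen. Sequences with 1 base missing within the first 15 held 3.79%, 3.76%, 3.35% and 5.47% of the counts in CTRL and 5.71%, 6.39%, 6.47% and 6.45% in MSUS. Every MSUS library lay above every CTRL library, with CTRL 5 close to MSUS 6 and well above the other CTRL libraries (means 4.09% ± 0.941 and 6.25% ± 0.367, SD, n = 4; exact permutation p = 0.0286). With this naming, the missing base was counted at base 6 in 3.41%, 3.40%, 3.05% and 4.89% of the counts in CTRL and in 5.17%, 5.63%, 5.82% and 5.76% in MSUS, which is most of the total. No other named position of the first 15 exceeded 0.379% in any library. Substitutions at base 6 held 8.09%, 9.02%, 7.02% and 10.9% in CTRL and 11.2%, 11.6%, 12.1% and 10.4% in MSUS, with CTRL 5 among the MSUS libraries (exact permutation p = 0.0571).

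Within a family, the variant share of variant and parent counts does not depend on how abundant the family is. For the deletion of G6 in family 1 it was 7.47%, 7.80%, 7.69% and 13.1% in CTRL and 13.3%, 13.1%, 13.2% and 14.2% in MSUS. CTRL 1, 2 and 3 lay close together, and CTRL 5 lay with the MSUS libraries (exact permutation p = 0.0571; without CTRL 5 the difference of the means went from 4.41 to 5.78 percentage points). For G6T in family 1 the share was 17.1%, 20.1%, 17.7% and 26.6% in CTRL and 26.1%, 24.6%, 24.8% and 23.2% in MSUS, again with CTRL 1, 2 and 3 low and CTRL 5 highest of all (exact permutation p = 0.143). For the deletion of G9 in family 11 the share was 15.1%, 16.1%, 15.6% and 19.8% in CTRL and 19.2%, 19.02%, 19.1% and 18.96% in MSUS. The split of the libraries was the same as in family 1, with CTRL 5 highest (exact permutation p = 0.143).

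Other variants separated the groups with CTRL 5 kept. For G9T in family 11 the share was 15.3%, 15.1%, 14.4% and 16.1% in CTRL and 16.4%, 16.4%, 16.4% and 16.8% in MSUS, and for G7A in family 2 it was 0.406%, 0.399%, 0.402% and 0.440% in CTRL and 0.476%, 0.502%, 0.501% and 0.554% in MSUS. CTRL 5 was the highest CTRL library in both and below every MSUS library (exact permutation p = 0.0286 for each). Still others showed no such split: C6A in family 2 was 0.533%, 0.483%, 0.531% and 0.497% in CTRL and 0.512%, 0.492%, 0.512% and 0.649% in MSUS, and C6T in family 22 was 32.6%, 31.9%, 31.4% and 32.2% in CTRL and 31.9%, 33.7%, 29.5% and 29.8% in MSUS. In both of these the groups overlapped (exact permutation p = 0.657 and 0.400). Over the 11 variants with at least 100000 counts in families with an A box, the Benjamini-Hochberg adjusted p was 0.157 or higher. With 4 libraries a group no variant could fall under 0.05 after this adjustment unless at least 7 of the 11 separated the groups, so these values say little about a single variant. Whether these base differences were present in the RNA or arose in reverse transcription, amplification or sequencing was not tested.

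**Figure D2:**
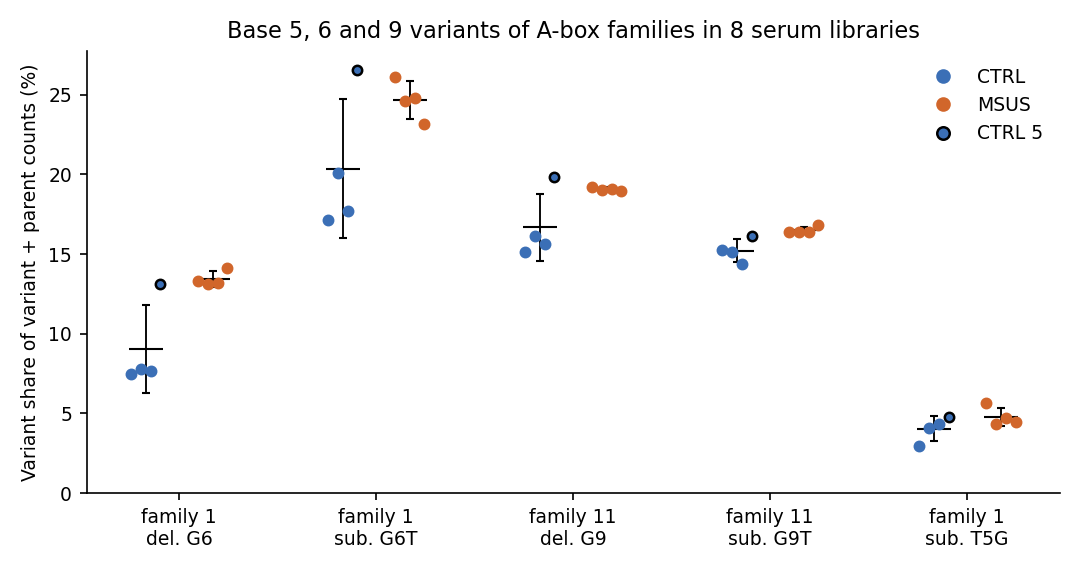
Share of variant plus parent counts (%) taken by 5 variants at bases 5, 6 and 9 of A-box families, with 1 point for each serum library (CTRL blue, MSUS orange, CTRL 5 outlined in black) and black marks for the mean and SD of 4 libraries. For the deletion of G6 in family 1 the CTRL libraries other than CTRL 5 sit between 7.47% and 7.80%, while CTRL 5 and the MSUS libraries sit between 13.1% and 14.2%.

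The 3′ ends varied in another pattern. Of all family 1 counts, the 30-nt form took 26.2%, 12.3%, 14.1% and 21.9% in CTRL and 9.12%, 35.04%, 13.98% and 37.7% in MSUS. The 32-nt form took 28.1%, 49.1%, 41.5% and 29.5% in CTRL and 56.5%, 20.9%, 50.4% and 24.2% in MSUS. CTRL 1 and 5 and MSUS 7 and 10 had the shorter ends and CTRL 2 and 3 and MSUS 6 and 8 the longer ones, so for these forms the order crossed the groups (exact permutation p = 0.543 and 0.886). The 31-nt form, the most abundant, took 44.2%, 36.8%, 42.8% and 46.85% in CTRL and 32.45%, 42.3%, 33.8% and 36.5% in MSUS, with MSUS 7 among the CTRL libraries and the others below them (exact permutation p = 0.0571). In family 2 the 32-nt form took 8.55%, 6.60%, 10.5% and 11.2% in CTRL and 5.63%, 7.59%, 6.25% and 6.37% in MSUS, where only MSUS 7 lay above a CTRL library (exact permutation p = 0.0571, and the same for the 33-nt form, which was higher in MSUS). The same libraries had the longer ends in family 6, where the 33-nt form took 22.5%, 44.3%, 36.3% and 28.1% in CTRL and 54.8%, 18.5%, 42.2% and 23.1% in MSUS (exact permutation p = 0.857). Family 11 ended at 31 nt in 98.4% to 98.8% of its counts in every library. The 30-nt and 32-nt ends of family 1 moved with the shares of 28 to 31 and 32 to 34 nt given above.

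Counts above 20 in 4 or more libraries were found for 5513 sequences, which hold 99.2% of the counts, and these were tested for a difference between MSUS and CTRL. The quasi-likelihood test of edgeR called 0 of them at the adjusted threshold of 0.05 (0%, smallest adjusted p 0.305), as did limma voom, while edgeR's exact test called 34 and DESeq2 46. At an unadjusted p under 0.05 the quasi-likelihood test counted 684 sequences (12.4%), 355 higher in MSUS (6.44%) and 329 lower (5.97%). Scaled by library totals, without TMM, the split was 213 higher and 393 lower. Leaving out CTRL 5 changed the calls: 176 of the 5887 sequences then tested passed the adjusted threshold, 135 higher and 41 lower in MSUS. When any other library was left out, 0 passed. Without CTRL 3, 316 sequences had an unadjusted p under 0.05, against 959 without CTRL 5.

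Classes of sequences leaned in different directions. Of 709 tested A-box variants at bases 2 to 10, 121 were higher in MSUS and 2 lower at an unadjusted p under 0.05, with a median log2 fold change of 0.46. Of 1556 other A-box sequences, 128 were higher and 25 lower, with a median of 0.19. Among 536 miRNA-matched sequences 0 were higher and 87 lower, with a median of -0.33, and among 2712 sequences with neither feature 106 were higher and 215 lower, with a median of -0.19. Over all 5513 the median was -0.03. The shares at an unadjusted p under 0.05 were 17.4%, 9.83%, 16.2% and 11.8% in these classes, in the order given, and 12.4% over all tested. Forms of the same RNA were counted apart here. Families 4 and 5, for example, hold 753 and 273 sequences of the whole table, each family with the same first 15 bases. The sequences of a class are thus not separate cases. By length, 3 of 1770 sequences at 20 to 24 nt were higher and 222 lower, while 182 of 1056 at 28 to 31 nt were higher and 11 lower. Scaled counts are shares, so a higher share of 1 class lowers the others. Of the 176 sequences called without CTRL 5, those with neither feature made up 105 of the 135 higher ones and 31 of the 41 lower ones. Those called without CTRL 5 also went both ways among miRNA-matched sequences, 5 higher and 7 lower, and at 20 to 24 nt, 8 higher and 19 lower.

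The 10 sequences with the smallest unadjusted p had adjusted p-values of 0.305 in edgeR. They were of 18 to 30 nt, 8 of them with neither an A box nor a miRNA match. Sequence 16 was the most abundant of them, with 18 nt, and had 2095, 1402, 3703 and 238 counts per 1000000 counts scaled by TMM (CPM) in CTRL and 213, 282, 270 and 290 CPM in MSUS. CTRL 1, 2 and 3 were high, and CTRL 5 lay among the MSUS libraries (log2 fold change -2.82 ± 0.60, SE; edgeR adjusted p = 0.305; -3.17 without CTRL 5). Sequence 11, also of 18 nt, had 61.3, 36.7, 79.0 and 6.54 CPM in CTRL and 5.00, 7.33, 6.36 and 4.38 CPM in MSUS, with the same split (log2 fold change -2.99 ± 0.59, SE, and -3.33 without CTRL 5). It differs from sequence 16 by 1 substituted base, so the 2 are not separate cases of the split. Sequence 14, of 29 nt, had 1.44, 3.88, 3.20 and 9.88 CPM in CTRL and 25.9, 23.4, 25.1 and 19.3 CPM in MSUS. Here CTRL 5 lay between the other CTRL libraries and the MSUS libraries, and the groups did not overlap. The log2 fold change was 2.35 ± 0.49 (SE), and 3.06 without CTRL 5. Sequence 18, of 18 nt, had 33.99, 18.9, 14.3 and 2.99 CPM in CTRL and 2.67, 2.91, 2.86 and 0.649 CPM in MSUS, with CTRL 5 just above the MSUS libraries; it too differs from sequence 16 by 1 substituted base. In the other 5 sequences without overlap, 9, 10, 13, 15 and 17, log2 fold changes were -2.10, 2.04, 1.92, -2.87 and 2.25. That of sequence 17 was 3.00 without CTRL 5, and that of sequence 15 was -3.71 without MSUS 10. Sequence 15 is a variant with 1 substituted base within family 19, which also holds sequence 12, a form of miR-16-5p described below. Sequences 10 and 15 passed the filter only through the group where they were high. Sequences 13, 17 and 18 would not have passed without the group where they were high, as their lowest counts in the other group were 8, 12 and 8. For all of these a difference was favoured by the filter.

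Summed into families, 1822 were tested and edgeR's quasi-likelihood test called 1 at the adjusted threshold of 0.05 (0.0549%), against 48 in edgeR's exact test, 84 in DESeq2 and 0 in limma voom. At an unadjusted p under 0.05 there were 333 (18.3%), 201 higher in MSUS (11%) and 132 lower (7.24%); with library totals and no TMM there were 133 higher and 162 lower. The family that passed, family 1825, holds 2 sequences with an A box, the first of 31 nt, and had 74, 41, 23 and 24 counts in CTRL and 2, 0, 0 and 0 in MSUS. All CTRL libraries lay above all MSUS libraries (adjusted p = 0.0265). It passed the filter of more than 20 counts in 4 libraries only through the CTRL group, where it was high, so its selection was not independent of the difference tested. With 2 counts in the MSUS group against 162 in CTRL, the ratio of MSUS to CTRL was 0.0130, with a 95% counting interval from 0.00156 to 0.0476 (Clopper-Pearson). No family was called when CTRL 1, 2 or 3 or MSUS 6, 7, 8 or 10 was left out. Without CTRL 5, 250 of the 1910 families then tested were called, 191 of them higher in MSUS and 59 lower. Family 5, the base 6 deletion of family 1, had 28104, 29980, 23730 and 37146 CPM in CTRL and 52373, 46499, 52664 and 53783 CPM in MSUS. CTRL 5 was the highest CTRL library, and the groups did not overlap (log2 fold change 0.79 ± 0.18, SE; edgeR adjusted p = 0.110). Family 23, of 29 nt, had 1828, 1899, 1400 and 2118 CPM in CTRL and 3208, 3215, 3210 and 3880 CPM in MSUS, again with no overlap (log2 fold change 0.90 ± 0.18, SE; edgeR adjusted p = 0.110). Family 23 begins with the bases of family 5 with 1 T missing, so it is not a separate case from family 5. Family 4 had 72647, 89647, 61709 and 89512 CPM in CTRL and 121548, 101536, 115022 and 99230 CPM in MSUS, with the groups apart and an edgeR adjusted p of 0.233. As a share of counts, without TMM, it took 7.39%, 8.40%, 6.37% and 10.1% in CTRL and 10.6%, 10.85%, 11.35% and 9.69% in MSUS, where CTRL 5 lay above MSUS 10 and the groups overlapped. The others among the 5 with the smallest p were families 390, 767 and 1577. Their log2 fold changes were -2.98, -1.59 and 1.79 (edgeR adjusted p = 0.110 for each). They hold sequences 11, 9 and 10, so they are not separate cases. Of these, only family 390 overlapped between the groups, with CTRL 5 among the MSUS libraries. Family 1577 passed the filter only through the MSUS group, where it was high.

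miRNAs were found by matching sequences to RefSeq hairpins, which placed 1037 sequences in 271 entries, an entry being a mature miRNA or several that a sequence matched equally well, and 28.4% of the matched counts were identical to the mature sequence. Matched counts made up 6.25%, 5.65%, 6.72% and 5.75% of the libraries in CTRL and 3.46%, 6.23%, 4.38% and 5.35% in MSUS. MSUS 6 was lowest and MSUS 7 lay among the CTRL libraries (means 6.09% ± 0.494 and 4.85% ± 1.199, SD, n = 4; exact permutation p = 0.114). The difference of the means was -1.24 percentage points with all libraries, -1.70 without MSUS 7 and -0.773 without MSUS 6. In every library the matched share was below the 18.3% of all counts that lay at 20 to 24 nt. Many counts of miRNA size thus had no match, among them family 3, of 23 nt, with 11% of all counts. What the unmatched sequences are was not tested.

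The mature sequences of 10 abundant miRNAs are shown with the seed in capitals, to set shared seeds side by side: miR-10a-5p and miR-10b-5p share a seed, as do miR-25-3p and miR-92a-3p.
miR-10b-5p: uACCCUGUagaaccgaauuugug
miR-10a-5p: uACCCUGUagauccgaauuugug
miR-25-3p: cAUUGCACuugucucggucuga
miR-92a-3p: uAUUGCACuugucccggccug
miR-30a-5p: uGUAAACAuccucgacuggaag
miR-16-5p: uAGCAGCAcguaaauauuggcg
miR-451a: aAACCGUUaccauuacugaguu
miR-142a-5p: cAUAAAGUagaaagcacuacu
let-7f-5p: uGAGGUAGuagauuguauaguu
miR-192-5p: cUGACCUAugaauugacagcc
The most abundant was miR-10b-5p, with 13213, 12457, 8186 and 7287 CPM in CTRL and 8132, 11322, 11017 and 10919 CPM in MSUS. Both its highest and its lowest library were CTRL libraries (log2 fold change 0.01 ± 0.26, SE, -0.04 with library totals and no TMM). Its neighbour in seed, miR-10a-5p, had 5260, 7176, 6503 and 4917 CPM in CTRL and 4439, 12789, 4173 and 8463 CPM in MSUS. MSUS 7 was highest and MSUS 8 lowest, so the groups overlapped. Next came miR-30a-5p, with 7483, 5709, 5988 and 4586 CPM in CTRL and 3187, 6592, 5550 and 5695 CPM in MSUS, with overlapping groups.

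Of 160 entries tested, called miRNAs below, 0 were called at the adjusted threshold of 0.05 by edgeR's quasi-likelihood test (0%, smallest adjusted p 0.0946) and by limma voom, 6 by edgeR's exact test and 5 by DESeq2. At an unadjusted p under 0.05 there were 44 (27.5%), of which 1 was higher in MSUS (0.625%) and 43 were lower (26.9%). The median log2 fold change of all 160 was -0.32. When miRNA counts were scaled by TMM over miRNAs alone, an alternative chosen after seeing the data, the median shifted by 0.35 to 0.04, and 16 had an unadjusted p under 0.05, 9 higher and 7 lower. Without CTRL 5, 16 of the 166 miRNAs then tested were called, 3 higher and 13 lower. No miRNA was called when any other library was left out, while the number at an unadjusted p under 0.05 dropped from 44 to 21 without CTRL 3 and to 23 without MSUS 8.

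Among abundant miRNAs, miR-16-5p, which is plentiful in red blood cells and represses cell cycle genes, had 4082, 4772, 5711 and 3456 CPM in CTRL and 2231, 1975, 1907 and 3349 CPM in MSUS. Every CTRL library lay above every MSUS library, with CTRL 5 and MSUS 10 close to each other (log2 fold change -0.93 ± 0.26, SE; edgeR adjusted p = 0.103). Both of its passenger strands had small p-values: miR-16-2-3p had 14.5, 13.8, 24.6 and 15.7 CPM in CTRL and 9.18, 7.81, 7.39 and 9.74 CPM in MSUS, and miR-16-1-3p had 1.80, 2.08, 2.04 and 2.20 CPM in CTRL and 1.16, 0.606, 1.03 and 1.136 CPM in MSUS. Neither overlapped between the groups (edgeR adjusted p = 0.0946 and 0.103), but miR-16-1-3p passed the filter of 20 counts only through the CTRL group, so its selection was not independent of the difference. A further 2 miRNAs were among the 5 with the smallest p. miR-365-3p had 8.05, 4.09, 5.17 and 3.13 CPM in CTRL and 1.85, 2.67, 1.75 and 1.54 CPM in MSUS, without overlap (log2 fold change -1.38 ± 0.34, SE; edgeR adjusted p = 0.0946). miR-322-3p had 5.83, 5.27, 6.34 and 0.498 CPM in CTRL and 0.137, 1.33, 0.477 and 0.162 CPM in MSUS. Here CTRL 1, 2 and 3 were high and CTRL 5 lay among the MSUS libraries (log2 fold change -3.01 ± 0.75, SE; edgeR adjusted p = 0.0946). It was -3.36 without CTRL 5 and ran from -4.06 to -2.71 over the libraries left out in turn. Neither miR-365-3p nor miR-322-3p would have passed the filter on the MSUS group alone, where both were low. Their selection was thus not independent of the difference either. Scaled by miRNAs alone, the groups overlapped for miR-16-5p, where MSUS 10 lay above CTRL 1 and 5 (log2 fold change -0.57), and stayed apart for miR-16-2-3p, miR-16-1-3p and miR-365-3p (log2 fold changes -0.64, -0.69 and -1.04).

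**Figure D3:**
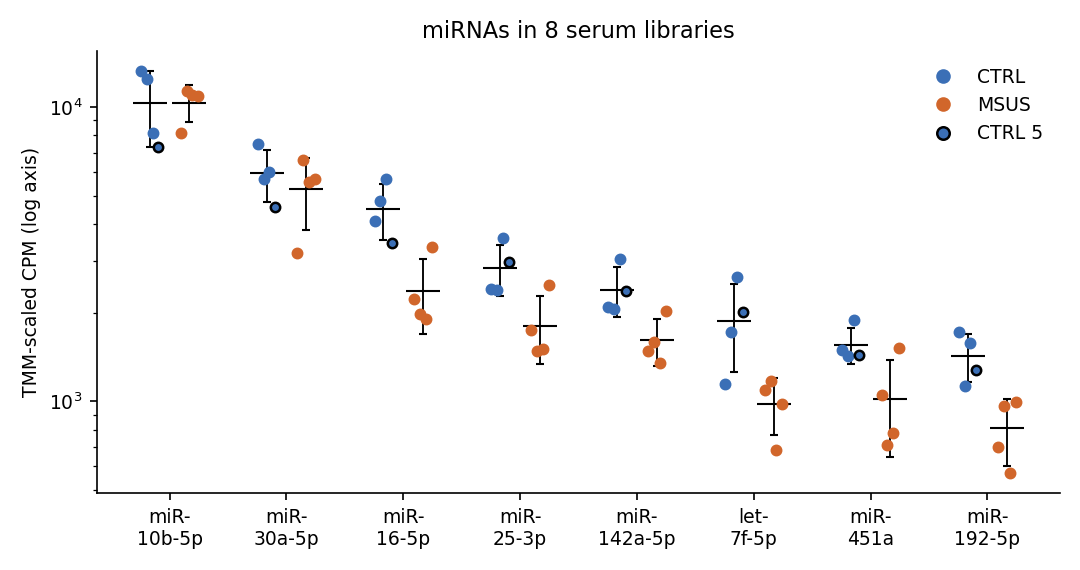
CPM scaled by TMM, on a log axis, of 8 miRNAs in each serum library (CTRL blue, MSUS orange, CTRL 5 outlined in black), with black marks for the mean and SD of 4 libraries. With this scaling miR-16-5p, miR-142a-5p and miR-192-5p do not overlap between the groups, and miR-10b-5p and miR-30a-5p do; scaled by miRNAs alone the first 3 overlap too.

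Lists of miRNAs known from particular tissues were described by counts and medians, beside all miRNAs tested. Of those 160, 129 were lower in MSUS in direction, 43 at an unadjusted p under 0.05, with a median of -0.32, and 76 were lower and 84 higher when scaled by miRNAs alone. Of 9 erythroid miRNAs 6 were in the table and tested, and no entry of miR-486a-5p, miR-486b-5p or miR-15a-5p was tested. All 6 were lower in MSUS under each of the 4 scalings tried, and 5 had an unadjusted p under 0.05. Their median was -0.64 (-0.28 when scaled by miRNAs alone, where 1 had such a p). Their summed level was 9736, 10718, 14590 and 9856 CPM in CTRL and 6254, 5254, 5251 and 9221 CPM in MSUS, with miR-16-5p the most abundant member. MSUS 10 lay just below the CTRL libraries and the other MSUS libraries far below. miR-451a, which is made in red blood cells by an unusual route through Ago2, had 1486, 1418, 1884 and 1436 CPM in CTRL and 1048, 711, 778 and 1516 CPM in MSUS. MSUS 10 lay above 3 CTRL libraries, so the groups overlapped (log2 fold change -0.62 ± 0.26, SE; edgeR adjusted p = 0.164). What share of red cell RNA the serum held was not measured, and the part of red cell miRNAs in the other results was not tested.

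All 9 tested members of the let-7 family, of 10 listed, were lower in MSUS with a median of -0.54 and 6 at an unadjusted p under 0.05; scaled by miRNAs alone, 7 were lower and 2 higher, with a median of -0.19. Its most abundant member, let-7f-5p, had 1141, 1719, 2639 and 2016 CPM in CTRL and 1093, 1168, 680 and 978 CPM in MSUS. CTRL 1 lay among the MSUS libraries and the other CTRL libraries lay above all of them (log2 fold change -0.94 ± 0.28, SE; edgeR adjusted p = 0.103). Of the liver list 3 of 5 members were in the table, and miR-122-5p and miR-122-3p were not. The 3 were all lower with a median of -0.72 (2 lower when scaled by miRNAs alone, with a median of -0.35). The most abundant member of the list, miR-192-5p, had 1714, 1129, 1570 and 1280 CPM in CTRL and 698, 965, 569 and 995 CPM in MSUS. The groups did not overlap, with MSUS 8 lowest (log2 fold change -0.82 ± 0.24, SE; edgeR adjusted p = 0.103). Scaled by miRNAs alone they did, with MSUS 10 above CTRL 2 (log2 fold change -0.49).

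The 4 tested members of the platelet and myeloid list, of 7, were lower with a median of -0.40, and 2 were lower when scaled by miRNAs alone. Its leading member miR-142a-5p, which is specific to blood cells, had 2092, 2053, 3043 and 2365 CPM in CTRL and 1484, 1588, 1347 and 2026 CPM in MSUS. CTRL 2 and MSUS 10 nearly met, and the groups did not overlap (log2 fold change -0.57 ± 0.22, SE; edgeR adjusted p = 0.154), though they did when scaled by miRNAs alone (-0.22). All 5 tested members of the miR-17-92 cluster, of 6, were lower under each of the 4 scalings, with a median of -0.53 (-0.21 when scaled by miRNAs alone). miR-92a-3p, from that cluster and also counted on the erythroid list, had 700, 683, 1192 and 1322 CPM in CTRL and 804, 689, 513 and 859 CPM in MSUS, with overlapping groups. The lymphoid list had 1 tested member of 3, miR-181a-5p, with a log2 fold change of -0.20 (0.12 when scaled by miRNAs alone). Of 6 striated muscle miRNAs 2 were tested, both higher under each of the 4 scalings, with a median of 0.36 and none at an unadjusted p under 0.05. miR-133b-3p, another muscle miRNA, is not on the list and was looked up after the values were seen; it was more abundant, at 41.3 to 60.99 CPM, with a log2 fold change of -0.03 (0.28 when scaled by miRNAs alone). miR-208b-3p, the most abundant member of the striated muscle list, had between 1.62 and 7.39 CPM in the 8 libraries. Its log2 fold change was -0.07 without CTRL 1 and -0.53 without MSUS 7. Of 5 neural miRNAs 2 were tested, both lower, with a median of -0.35, and 1 lower and 1 higher when scaled by miRNAs alone. Of 6 epithelial and endocrine miRNAs 3 were tested, with a median of -0.06, or 0.28 when scaled by miRNAs alone.

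Mature ends of miRNAs also differed from the reference. miR-10b-5p and miR-10a-5p came to between 99.19% and 99.85% from shorter forms in every library, mostly of 22 nt and 1 base shorter than the mature sequence, and 87.0% of miR-30a-5p counts came from a 20-nt form that lacked 2 bases at its 3′ end. Of miR-142a-5p, 72.95% of the counts came from a 20-nt form that starts 2 bases before the mature sequence, so bases 2 to 8 of that form are not the seed shown above. Forms longer than the mature sequence made up 49.4% to 56.9% of miR-451a over the 8 libraries, with the groups overlapping (exact permutation p = 0.657). For miR-16-5p the identical form took 53.5%, 48.0%, 57.5% and 80.4% in CTRL and 81.2%, 84.0%, 80.1% and 70.8% in MSUS. CTRL 1, 2 and 3 were low and CTRL 5 lay among the MSUS libraries, the split seen in the 5′ variants (exact permutation p = 0.0857). The rest were mostly shorter forms, at 43.3%, 48.5%, 39.3% and 18.4% in CTRL and 17.8%, 15.3%, 18.8% and 27.8% in MSUS. A 23-nt form, sequence 12, had 118, 148, 163 and 36.5 CPM in CTRL and 20.8, 12.2, 18.2 and 39.0 CPM in MSUS. CTRL 1, 2 and 3 were again high (log2 fold change -2.37 ± 0.48, SE, and -2.66 without CTRL 5). It is shown because it was the miRNA form with the smallest p; the capital marks the base beyond the mature sequence.
sequence 12: tagcagcacgtaaatattggcgT
The higher level of miR-16-5p in CTRL 1, 2 and 3 thus came with more shortened and lengthened forms in the same libraries, and whether either depends on the other was not tested.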

How the data were processed

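Small RNA libraries of serum were used, 4 from MSUS males and 4 from CTRL males. The authors made them with the TruSeq Small RNA kit, merged 2 runs of each library, trimmed adapters with cutadapt 1.14 and collapsed the reads, and the deposited values are counts per unique sequence, without normalization. How the table was filtered is not stated; its smallest nonzero count is 2. Sperm tables were not used here. The smallest and largest library held 12445867 and 16733257 counts.

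Tests used edgeR 4.0.16 (quasi-likelihood, R 4.3.3) on sequences whose count exceeded 20 in 4 or more libraries, with TMM factors and totals from the whole table and Benjamini-Hochberg adjustment over all features tested. The same was done for counts summed over families (first 15 bases) and over miRNAs. With 1 library left out, the filter asked for 3 or more libraries, so the features tested changed as well. Without CTRL 5, for example, 5887 sequences were tested against 5513 with all libraries. A sequence was given to a miRNA when it lay in a RefSeq hairpin (GRCm38.p6) within 2 bases of the mature start and 5 of its end. For single values a two-sided exact permutation test ran over the 70 assignments of libraries. Positions of an A box and 5′ variants were found with Python 3.11.15, and plots were drawn with matplotlib 3.10.9. The tests were tested on simulated data, and the outcome is not given here.

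Named were the 5 most abundant sequences and families, the most abundant sequence of each length class, the 10 most abundant miRNAs, the 10 sequences, 5 miRNAs and 5 families with the smallest p, and the most abundant miRNA of each list. Members and lists were chosen with earlier results of these data known, and families and variants named beyond this rule after their values were seen. Alternatives were edgeR's exact test, DESeq2 1.42.0, limma voom 3.58.1, other scalings and filters, merged 1-base variants, identical miRNA matches, unweighted sequences, the 10 most abundant sequences left out and each library left out.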

Additional observations from a re-analysis of the deposited data

Results flagged for a closer look

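In 12 of 168 groups of 4 libraries, 1 library lay far from the other 3 by Dixon's criterion at the 95% level, and chance alone marks about 1 in 20 groups. Of these, 3 concern CTRL 5: the share of the family 1 deletion of G6 was 13.1% against 7.47% to 7.80% in the other CTRL libraries, mean GC content at 25 to 27 nt was 58.15% against 56.2% to 56.5%, and mean GC content at 35 to 49 nt was 53.5% against 52.2% to 52.3%. MSUS 10 was highest of its group for G9T in family 11 (16.8% against 16.4% in the other 3), for C6A in family 2 (0.649% against 0.492% to 0.512%) and for family 23 (3880 CPM against 3208 to 3215), and lowest for sequence 18 (0.649 CPM against 2.67 to 2.91). MSUS 6 was highest for sequence 8, the most abundant of 35 to 49 nt (353 CPM against 211 to 223), lowest for miR-10b-5p (8132 CPM against 10919 to 11322) and the only MSUS library with counts for family 1825 (0.137 CPM, or 2 counts, against 0, which the criterion marks whenever only 1 library is above 0). miR-451a was highest in CTRL 3 (1884 CPM against 1418 to 1486), and miR-208b-3p in MSUS 7 (7.39 CPM against 1.99 to 2.40). The part of CTRL 5 in the group comparisons was measured by leaving it out, and what sets it apart was not tested.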

How the results depend on the processing

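No paired analysis was possible because the sample numbers of the MSUS and CTRL groups do not overlap. Over 82 results and 1111 alternative values, 945 kept their direction and their side of the threshold or stayed within their spread.

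Sequences called were 34 with edgeR's exact test, 46 with DESeq2 and 3 with no count filter, against 0, and 0 to 176 with a library left out. Sequences with unadjusted p under 0.05 were 1829 with no count filter, 267 with more than 100 counts and 437 with 1-base variants merged, against 684, and 316 to 959 with a library left out. miRNAs called were 6 with the exact test, 5 with DESeq2 and 2 with identical matches only, and 0 to 16 with a library left out; those with unadjusted p under 0.05 were 29 with identical matches and 16 scaled by miRNAs alone, against 44, and 21 to 45 with a library left out. 5′ families called were 48 with the exact test, 84 with DESeq2, 0 with limma voom, 3 with no count filter and 0 with more than 100 counts, and 0 to 250 with a library left out; those with unadjusted p under 0.05 were 765 with no count filter and 178 with more than 100 counts, against 333, and 195 to 489 with a library left out. Higher in MSUS were 51.9% of the sequences at that p with TMM and 35.1% with library totals, and 60.4% and 45.1% of the families; of the miRNAs 2.27%, or 56.2% scaled by miRNAs alone.

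Counting each sequence once, the difference of MSUS minus CTRL was -1.90 percentage points at 20 to 24 nt (exact p = 0.0286), -0.496 at 32 to 34 nt, -1.30 for first base T (exact p = 0.0286), -0.0356 for C at 20 to 24 nt, -0.398 for T at 32 to 34 nt and 0.0918 for GC content. Without the 10 most abundant sequences it was 8.99 at 28 to 31 nt (exact p = 0.0286), -2.46 at 32 to 34 nt and -0.124 for T at 32 to 34 nt. For miRNA counts identical to the mature sequence it was -0.578 (exact p = 0.0286).

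With a library left out, the difference ranged from -3.94 to 4.45 at 32 to 34 nt, from -0.00238 to 0.618 for first base A, from -0.769 to -0.452 for first base C, from -13.1 to -6.01 for T at 15 to 19 nt, from -1.10 to -0.779 for C at 20 to 24 nt, from -0.5305 to -0.336 for T at 32 to 34 nt, from -1.70 to -0.773 for miRNA-matched counts and from -0.00603 to 0.0463 for C6A in family 2. Log2 fold changes with a library left out that changed sign ranged from -0.16 to 0.25 for sequence 1, from -0.12 to 0.42 for sequence 3, from -0.0702 to 0.33 for sequence 8, from -0.11 to 0.15 for miR-10b-5p, from -0.05225 to 0.52 for miR-10a-5p, from -0.14 to 0.11 for miR-27b-3p, from -0.53 to 0.38 for miR-208b-3p, from -0.13 to 0.31 for miR-141-3p and from -0.20 to 0.19 for family 2. Other settings changed the sign of miR-10b-5p (-0.0371 with library totals, -0.26 with identical matches), miR-10a-5p (-0.21 with identical matches), miR-141-3p (-1.055 with identical matches), miR-27b-3p (-0.0214 with limma voom, -0.0453 with library totals), family 2 (-0.0267 with library totals) and, scaled by miRNAs alone, miR-30a-5p (0.16), miR-22-3p (0.05005) and miR-181a-5p (0.12). The cause of these changes was not tested.

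With 4 libraries a group no exact p can pass 0.05 after adjustment over 24 shares, 11 variants or 6 length classes unless many of them separate the groups. Depth limits features near the filter of 20 counts, such as family 1825 and miR-322-3p, and not the shares, whose counting error is far below the spread between libraries. The table holds what its unstated filter let through, so rarer sequences were not analysed here. All values are shares of a library, so amounts of RNA per volume of serum were not measured. Sequences matched to no miRNA were not assigned to genes.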
